A study of Mus musculus with 29 samples.

Results

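The IL-1 family cytokines and decoys comprised 10 genes of the 54532 in the count table: Il1a, Il1b, Il1rn, Il1r2, Il18, Il18bp, Il33, Il1rl1, Il1f6 (Il36a) and Il1f9 (Il36g). They were chosen by symbol, with earlier results of these data known. All 10 were found and all 10 passed the filter on low counts. In the GRCm38 annotation 5 of these protein-coding genes lie on chromosome 2, Il1f9 (chr2:24186476-24193568), Il1f6 (chr2:24215418-24225702), Il1rn (chr2:24336853-24351494), Il1a (chr2:129299610-129309972) and Il1b (chr2:129364570-129371139). Both receptors lie on chromosome 1, Il1r2 (chr1:40074079-40125231) and Il1rl1 (chr1:40429570-40465415), and the others are Il18 (chr9:50554827-50581840), Il18bp (chr7:102014885-102018690) and Il33 (chr19:29925114-29960718). RNA of colon segments from 29 mice was sequenced, 1 library per mouse. The question was how each ligand, antagonist and decoy was set in 6 forms of experimental colitis against untreated colon.

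The 4 TRUC mice were Balb/C Tbx21-/- x Rag2-/- animals that received no treatment, and their controls were 3 untreated Balb/C Rag2-/- mice. Mice labelled Balb/C received 3% DSS in their water over 5 days and were culled at day 10 (n = 3), 3 mg DNBS by rectum in 50% ethanol (n = 3), or an IL10 blocking antibody (n = 4), for which the protocol gives 750 µg of an antibody against the IL-10 receptor with an end at 4 weeks unless colitis showed earlier. All of these shared 3 untreated mice labelled Balb/C, called wild-type (WT) here. Mice labelled C57BL/6 Rag1-/- received sorted naive CD4+ T cells and were culled after 6 to 8 weeks (TCT, n = 3) or 50 µg of agonist anti-CD40 and were culled after 7 days (n = 3), and they shared 3 untreated mice of the same label. The paper describes an IL-10 group of Il10-/- mice, which the labels do not, gives the DSS mice as C57BL/6 and gives other times than the labels for DSS and T cell transfer, and the labels give no age. The treatment text names the T cell recipients Rag2-/- where their label has Rag1-/-. The Rag-deficient groups, controls included, make no T or B cells of their own by genotype.

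Interleukin-1α and interleukin-1β act through the same receptor, IL-1R1, and drive neutrophil recruitment. The receptor antagonist (Il1rn) competes for that receptor and the type 2 receptor (Il1r2) binds the ligands without signalling. Interleukin-18, stored as a precursor in colonic epithelium, is neutralized by IL-18 binding protein (Il18bp), and interleukin-33, a nuclear alarmin of stromal, endothelial and epithelial cells, acts on ST2, the product of Il1rl1, which also has a soluble decoy form. The IL-36 cytokines (Il1f6, Il1f9) are made by epithelial and myeloid cells and signal through Il1rl2. Interleukin-1β and interleukin-18 are activated by cleavage, so their transcripts do not measure the active protein, and counts per gene do not separate the soluble from the membrane forms of Il1rl1 or Il1r2, or the secreted from the intracellular forms of Il1rn.

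Il1b and Il18bp were called higher in each of the 6 models, and their promoters are shown together with that of Il1a, the member closest to Il1b across mice. The Il18bp call in DNBS rested on mouse 16. The Il1b calls in DNBS and anti-CD40 were lost when certain single mice were left out. The 200 bases before the RefSeq start (GRCm38.p6, minus strand, 5′ to 3′) are given with the letters of a TATA box (TATAAA), an AP-1 motif (TGANTCA) or a C/EBP motif (TTGCNNAA) in capitals.
Il1b, chr2:129371140-129371339: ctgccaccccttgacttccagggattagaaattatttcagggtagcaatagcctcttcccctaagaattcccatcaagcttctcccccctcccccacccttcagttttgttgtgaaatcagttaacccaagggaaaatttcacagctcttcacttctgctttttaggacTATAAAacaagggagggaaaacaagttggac
Il1a, chr2:129309973-129310172: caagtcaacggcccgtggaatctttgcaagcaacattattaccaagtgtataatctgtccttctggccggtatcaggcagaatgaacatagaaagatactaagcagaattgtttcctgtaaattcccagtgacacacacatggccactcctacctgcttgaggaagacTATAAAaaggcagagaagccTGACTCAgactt
Il18bp, chr7:102018233-102018432: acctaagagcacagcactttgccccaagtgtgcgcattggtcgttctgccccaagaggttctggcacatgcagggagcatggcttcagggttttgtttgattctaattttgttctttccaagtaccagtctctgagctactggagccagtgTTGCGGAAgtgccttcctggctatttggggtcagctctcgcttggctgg

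TATAAA lay at -31 to -26 from the start in Il1b and at -32 to -27 in Il1a, and was not found in the Il18bp window. Over the whole windows of 300 bases, both strands searched, these letters occurred in 13.6% of 32851 mouse promoter windows, the AP-1 letters in 7.81% and the C/EBP letters in 10.8%. An AP-1 match was found at -12 to -6 in Il1a and at -141 to -135 in 1 window of Il1rn, and C/EBP matches at -49 to -42 in Il18bp, at -34 to -27 in 1 window of Il1rl1 and at -85 to -78 in 1 window of Il33. TATAAA also lay at -29 to -24 in that window, at -203 to -198 in another of Il33, at -175 to -170 on the reverse strand in Il18 and after the start in 1 window of Il1rn. GAS letters (TTCNNNGAA, 8.30% of windows) were found at -111 to -103 in Il1r2 and at -128 to -120 in Il1f9. The κB consensus (8.46% of windows) and the ISRE consensus (3.44%) were in none of the 13 windows of the 9 members that matched, which says only that these letters are not there. No 2 matches overlapped in these windows. Il1f6 was named only.

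Libraries held 10725564 to 14977094 counts, and a count of 0 allows up to 0.179 to 0.313 CPM (counts scaled to library size by the TMM method), counting error only. The label checks were mixed. H2-Ea-ps, which C57BL/6 mice do not transcribe for want of its promoter, had 787 to 1011 counts in the mice labelled C57BL/6 Rag1-/- without treatment and 2262 to 2512 in anti-CD40, but 0 in TCT and at most 1 in the WT, DSS, DNBS and IL-10 groups labelled Balb/C. The Rag2-/- controls had 784 to 1462 and TRUC 2981 to 3956. Rag1 had 20 to 33 counts in TCT and 0 to 4 in its control, and Rag2 had 6 to 20 counts in the labelled Rag1-/- controls and 0 in TCT. Rag2 had 48 to 99 counts in anti-CD40, labelled Rag1-/- like TCT, and 15 to 25 in the Rag2-/- controls. Rag2 had 57 to 94 counts and Tbx21 26 to 52 in TRUC, and Il10 had 61 to 111 in the IL-10 group. Which part of each gene an allele lacks is not given in the sources used here, so counts of these genes do not check the genotypes. By H2-Ea-ps the groups labelled C57BL/6 other than TCT, and all groups labelled Balb/C without a Rag deletion, went against their strain labels. Nnt, also listed as a strain check, had 1 to 8 counts per mouse and set no group apart. Pla2g2a, listed likewise, was at 0.762 to 0.902 CPM in the WT mice. DNBS mice had 1.67 to 21.9 CPM, TCT mice 23.0 to 67.0, DSS mice 36.8 to 86.1 and IL-10 mice 80.8 to 109. Labelled Rag1-/- mice had 63.4 to 113, anti-CD40 mice 1268 to 1893, Rag2-/- mice 89.2 to 217 and TRUC mice 1358 to 1568. The part of strain in these Pla2g2a levels, and so in the comparisons with WT mice, was not tested. TCT and its control differed in H2-Ea-ps and in the counts of Rag1 and Rag2, so strain, genotype and transfer cannot be told apart there. Calls of members in TCT are given against the WT mice as well. DSS mouse 8 and IL-10 mouse 4 stood apart from their groups, with correlations of 0.954 to 0.957 with their own group where the other pairs of those groups reached 0.979 or more.

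Across the 6 comparisons members were called, with an edgeR quasi-likelihood test and an adjusted p under 0.05 over 18616 genes, mostly as higher. As the members were chosen with earlier results of these data known, the shares of all genes beside them are a description and no test. In TRUC 7 of 10 were higher and 0 lower, where 22.4% of all genes were called higher and 23.4% lower. In DSS 9 were higher and 0 lower (all genes 17.7% and 16.3%), and without mouse 8, 6 were called. In DNBS 4 were higher and 0 lower (3.95% and 2.21%), and leaving out 1 mouse left between 1 and 4. In the IL-10 group 7 were higher and 0 lower (27.2% and 26.1%). The calls in TRUC, DSS and the IL-10 group each include Il1f6, which passed the filter only through the groups where it was high. In TCT 6 were higher and 2 lower (16.1% and 14%). In anti-CD40 only Il1b and Il18bp were higher and Il33 was lower (10.9% and 10.7%). Over the 10 members the median log2 fold change was highest in DSS at 5.34, followed by 4.19 for the IL-10 group, 3.93 for TRUC, 3.46 for TCT, 2.90 for DNBS and 1.01 for anti-CD40, while the median of all genes lay between -0.03 and 0.02. Without DSS mouse 8, over the 9 members still tested, the DSS median was 4.31, where those 9 had 5.20 with it. These medians hold fitted values of genes at 0 in their controls, which depend on the prior count. Il1b, Il18bp, Il1rl1 and Il1r2 were called in 5 or 6 comparisons, Il1rn in DSS alone, and Il18 in TCT alone. The choice of tool moved some of these: with edgeR on the compared groups alone and with DESeq2, Il1a passed in DNBS, and Il1a, Il1rl1 and Il1f9 in anti-CD40. Il1f9 in DNBS passed with the first of these and Il1rn in the IL-10 group with the second.

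**Figure D1:**
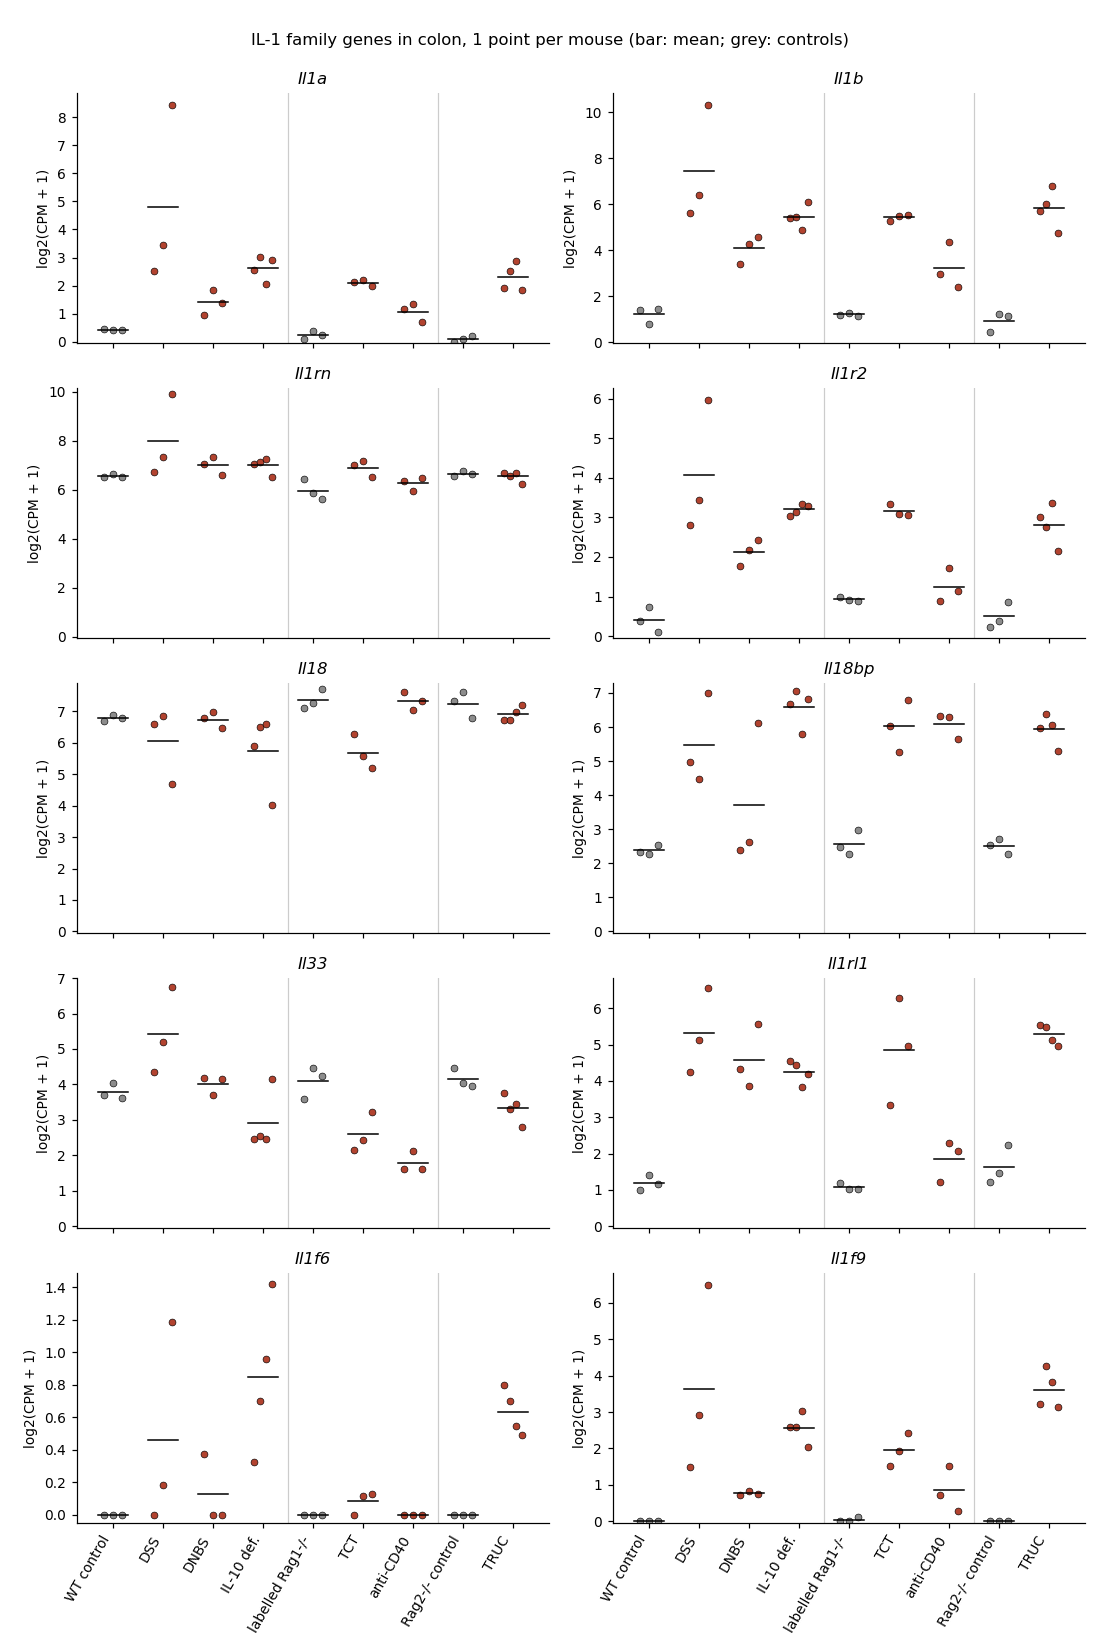
Level of each gene in each mouse as log2(CPM + 1), by group, with the mean as a bar, controls in grey and vertical lines that separate the sets sharing a control. Il1b lay above every control mouse in each model, Il1rn and Il18 stayed near their controls in most mice, and DSS mouse 8 is the highest point for 7 of the genes.

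**Figure D2:**
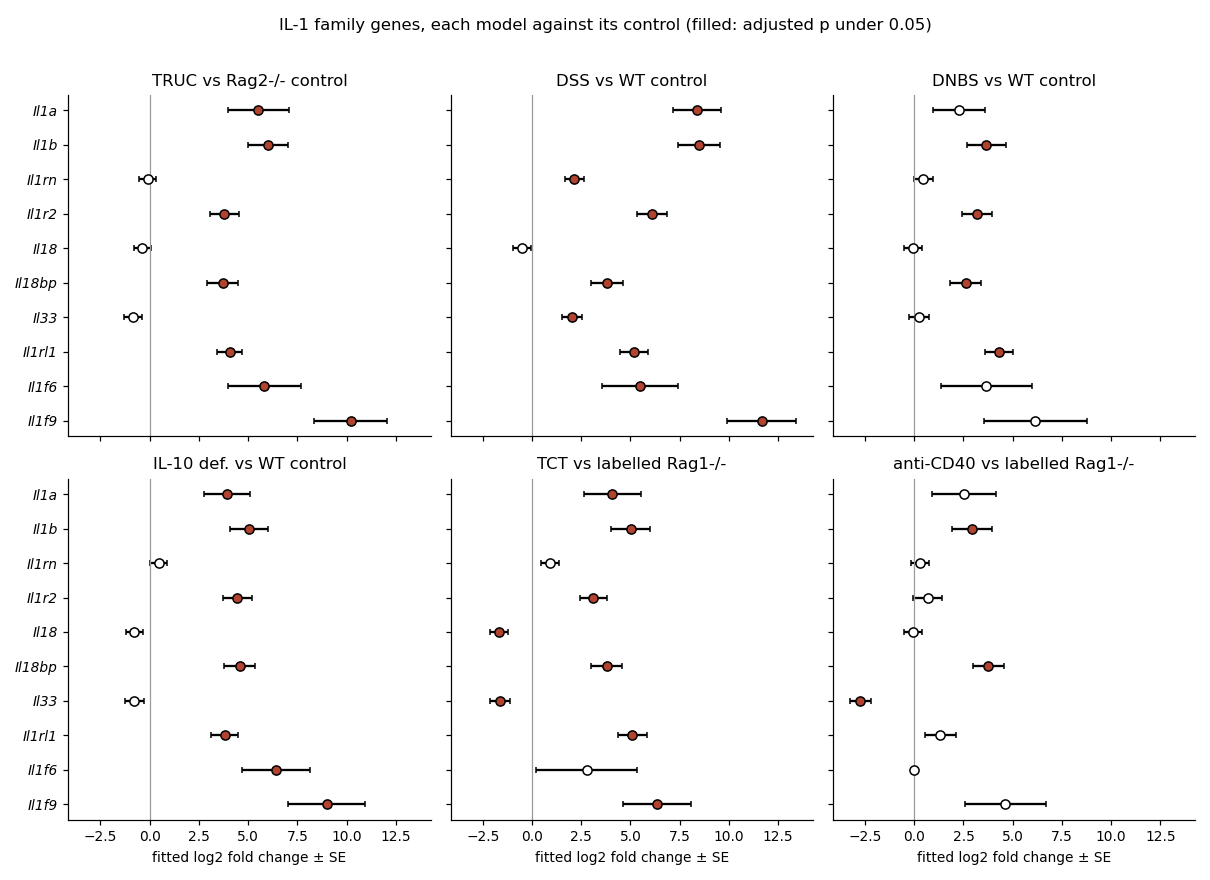
Fitted log2 fold change of each gene in each model against its control, with the standard error as bars and filled points for an adjusted p under 0.05. Il1b and Il18bp are filled in all 6 panels, Il33 is right of 0 in DSS and left of 0 in TCT and anti-CD40, and Il1f6 in anti-CD40 sits at 0 because no mouse had a count.

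Il1b was the ligand with the most general rise. Control levels were low, 0.732 to 1.72 CPM in the WT mice, 1.20 to 1.40 in the labelled Rag1-/- mice and 0.354 to 1.30 in the Rag2-/- mice. The 4 TRUC mice were at 51.3, 63.7, 111 and 25.6 CPM. The DSS mice were at 48.4, 84.1 and 1290 CPM, and the DNBS mice at 9.49, 18.4 and 23.1. No model mouse overlapped with its controls, and DSS mouse 8 stood far above the rest of its group. The IL-10 mice were at 40.9, 43.2, 28.8 and 66.8 CPM. The TCT mice were at 38.1, 44.1 and 45.1 CPM and the anti-CD40 mice at 6.76, 19.3 and 4.23. Anti-CD40 and DNBS were thus the lowest of the models, and TCT the most even.

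The log2 fold change of Il1b was 6.00 ± 1.02 (SE) in TRUC (adjusted p = 7.1e-05), 8.47 ± 1.07 in DSS (6.3e-06), 5.07 ± 0.97 in the IL-10 group (0.000158) and 5.01 ± 0.99 in TCT (0.000427), all from the quasi-likelihood fit. It was 3.66 ± 0.98 in DNBS (adjusted p = 0.0284) and 2.94 ± 1.00 in anti-CD40 (0.0386). Without DSS mouse 8 the value in DSS was 5.63 with an adjusted p of 1.8e-06. The DNBS call was lost when mouse 14, mouse 16 or any of the WT mice was left out, and the anti-CD40 call when mouse 7 or any of its controls was. Against the WT mice the TCT value was 4.99 (adjusted p = 0.000642). The 6 contrasts were not equal (adjusted p = 9.1e-05). In direct contrasts DSS exceeded DNBS by 4.81 ± 0.86 (adjusted p = 0.000669), which was 1.97 without DSS mouse 8 (0.0173) and did not pass with edgeR on these groups alone (0.128). TCT exceeded anti-CD40 by 2.08 ± 0.80, which did not pass (0.0726).

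Il1a, the alarmin form that is active without cleavage, was called higher in 4 models. The controls had 0 to 5 counts per mouse. The DSS mice were at 4.78, 9.98 and 343 CPM, against 0.328 to 0.381 in WT mice. The TRUC mice were at 2.80, 4.80, 6.32 and 2.60 CPM, the IL-10 mice at 4.89, 7.17, 3.17 and 6.48, and the TCT mice at 3.40, 3.59 and 2.96. The DNBS mice were at 0.955, 2.63 and 1.62 CPM and the anti-CD40 mice at 1.22, 1.54 and 0.645. Model and control mice did not overlap in any comparison. The log2 fold change was 8.38 ± 1.21 in DSS (adjusted p = 2.4e-05; 4.37 without mouse 8) and 3.92 ± 1.18 in the IL-10 group (0.00778). In TRUC, whose 3 controls held 3 counts in all, the ratio of pooled counts, scaled to library size, was 50.4. Its counting interval was 17.0 to 247 and the call had an adjusted p of 0.00606. In TCT the log2 fold change was 4.09 ± 1.43 (adjusted p = 0.0324), a call lost against the WT mice (0.0547) and when any 1 of its 6 mice was left out. In DNBS it was 2.27 ± 1.34 (0.301) and in anti-CD40 2.52 ± 1.64 (0.282), neither of which passed. Of the 50-base windows in the exons of Il1a, 9.14% are shared with the antisense gene Gm14023, which had 102 counts in all, and whether counting used strand is not given in the sources used here.

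The decoy receptor Il1r2, known from neutrophils and macrophages, was called higher in every model but anti-CD40. It was at 0.082 to 0.666 CPM in WT, 0.860 to 0.972 in the labelled Rag1-/- mice and 0.177 to 0.830 in the Rag2-/- mice. It reached 6.04, 9.77 and 61.7 CPM in DSS, 2.39, 3.49 and 4.43 in DNBS, and 7.25, 7.79, 9.09 and 8.78 in the IL-10 group. It reached 9.16, 7.43 and 7.32 CPM in TCT and 7.07, 5.78, 9.25 and 3.42 in TRUC, but 0.845, 2.31 and 1.22 in anti-CD40, where 1 of the 3 mice lay below all of its controls. The log2 fold change was 6.10 ± 0.76 in DSS (adjusted p = 5.1e-06; 4.40 without mouse 8), 4.45 ± 0.73 in the IL-10 group (3.4e-05), 3.80 ± 0.72 in TRUC (0.000210), 3.18 ± 0.77 in DNBS (0.0176) and 3.12 ± 0.67 in TCT (0.000976; 4.41 against WT). The DNBS call was lost without mouse 14, mouse 16, WT mouse 1 or WT mouse 4. In anti-CD40 it was 0.68 ± 0.73, with a 95% interval of -0.82 to 2.19 and an adjusted p of 0.540. The direct contrast showed TCT above anti-CD40 by 2.44 ± 0.64 (adjusted p = 0.00828).

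The receptor antagonist Il1rn was abundant without colitis and moved little. Per kilobase of exon, the scale on which genes can be set side by side, its mean level in WT colon was 16.9 CPM, against 0.708 for Il1b and 0.176 for Il1a. It was at 90.6, 99.4 and 91.1 CPM in the WT mice. The DSS mice were at 105, 162 and 973 CPM, and the log2 fold change of 2.14 ± 0.48 (adjusted p = 0.00149) rested on mouse 8, since without it the value was 0.51 and did not pass (0.151). The IL-10 mice were at 133, 139, 153 and 90.6 CPM and the DNBS mice at 131, 161 and 96.7. The TRUC mice, at 103, 94.4, 101 and 75.3 CPM, and the anti-CD40 mice, at 81.6, 61.5 and 88.6, overlapped with their controls. In the models other than DSS the log2 fold changes ran from -0.10 in TRUC to 0.92 in TCT with adjusted p values of 0.143 or more. The TCT mice, at 129, 142 and 91.4 CPM, lay above the labelled Rag1-/- mice (86.6, 56.8 and 47.7), yet 1 of them lay within the WT range. That TCT value passed with edgeR on these groups alone and with DESeq2. In TRUC the 95% interval of the log2 fold change was -0.99 to 0.80.

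The ratio of antagonist to ligand transcript was lower in every model mouse than in any control mouse, a description that follows from the values of both genes and carries no test of its own. The log2 ratio of Il1rn to Il1b, per kilobase, ran from 3.77 to 6.49 in the 9 control mice. It ran from -1.94 to -0.42 in DSS, -1.67 to 0.02 in TRUC, -1.10 to 0.87 in the IL-10 group, -0.52 to 0.22 in TCT, 0.53 to 2.25 in DNBS and 0.14 to 2.85 in anti-CD40. Per kilobase of merged exon, all 3 DSS mice had more Il1b than Il1rn, with ratios of 0.745, 0.664 and 0.260 in mice 5, 6 and 8. The WT mice had a median of 19.5. In CPM, DSS mice 5 and 6 had more Il1rn (105 and 162) than Il1b (48.4 and 84.1). Which gene was higher in those mice thus rests on the merged exon lengths, 5535 bases for Il1rn and 1907 for Il1b. The lengths of the transcripts present were not tested.

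**Figure D3:**
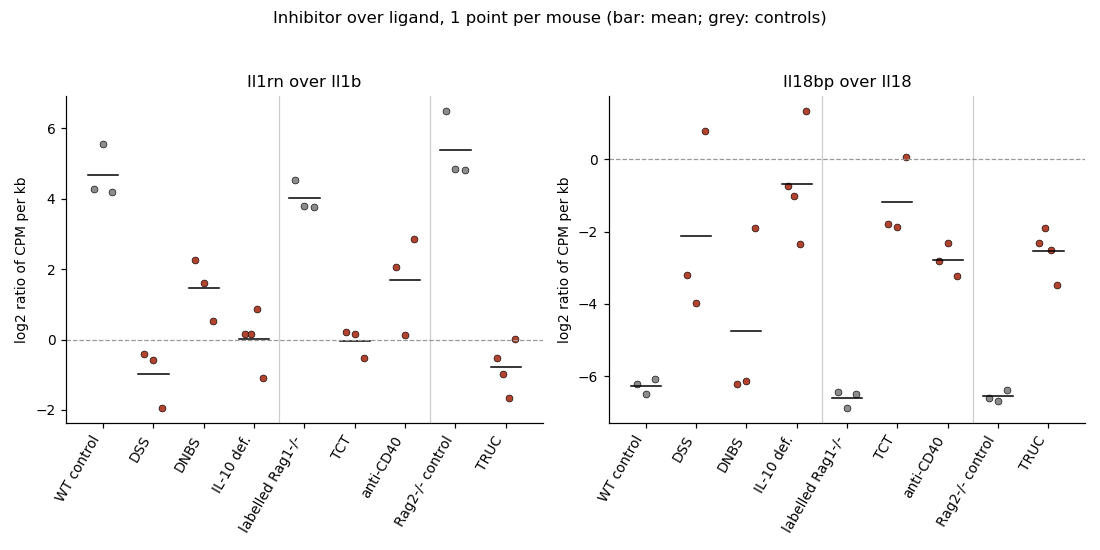
Log2 ratio of Il1rn to Il1b and of Il18bp to Il18, both as CPM per kilobase of exon, 1 point per mouse, with group means as bars and controls in grey. For Il1rn over Il1b every model mouse is at or below 2.85 and every control at or above 3.77; for Il18bp over Il18 the controls lie at -6.88 to -6.06 and 2 of the 3 DNBS mice lie among them.

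Il18 was called lower in TCT and in no other model, while its binding protein was called higher in each, in DNBS through mouse 16 alone. Il18 had the highest level of the members per kilobase in control colon, 107 CPM in WT mice. It was at 103, 117 and 110 CPM in WT mice, and at 94.8, 114 and 24.9 in DSS, where mouse 8 was the low one. The IL-10 mice were at 58.5, 90.1, 94.5 and 15.2 CPM, with mouse 4 the low one, and all lay below the WT mice, yet the log2 fold change of -0.77 ± 0.42 did not pass (adjusted p = 0.126). The TCT mice were at 75.8, 46.5 and 35.4 CPM against 137, 154 and 208 in the labelled Rag1-/- mice, and Il18 fell by 1.66 on the log2 scale (SE 0.46, adjusted p = 0.00827). Against the WT mice the TCT value was -1.07 with an adjusted p of 0.0789, with no overlap between the mice, so that call depended on the control, and it was also lost without TCT mouse 5. The TRUC mice were at 105, 104, 126 and 144 CPM, the DNBS mice at 108, 123 and 86.9 and the anti-CD40 mice at 192, 131 and 158, each set overlapping with its controls. In TRUC, DSS, DNBS and anti-CD40 the log2 fold changes lay between -0.50 and -0.05 with adjusted p values of 0.417 or more. The contrast of TCT with anti-CD40 was -1.61 ± 0.46 (adjusted p = 0.0160), and was lost without TCT mouse 3 or 5 or anti-CD40 mouse 6. The epithelial markers (Epcam, Cdh1, Krt8, Krt20, Vil1, Cdx2) summed to 8969 to 9748 CPM in TCT against 7367 to 7881 in its control, with 1 of 6 called higher and 1 lower. They summed to 15824 CPM in IL-10 mouse 4, against 6426 to 7630 in the WT mice, and to 5213, 6479 and 6005 in DSS mice 5, 6 and 8, of which mouse 8 alone was low in Il18. No epithelial marker was at 0 in any group, and their part in the Il18 values was not tested.

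Il18bp was at 3.79 to 6.79 CPM in all 9 control mice. The IL-10 mice were at 102, 131, 54.4 and 113 CPM and the TRUC mice at 62.3, 82.7, 65.4 and 38.2. The anti-CD40 mice were at 79.9, 77.2 and 49.3 CPM, the TCT mice at 64.4, 37.4 and 109, and the DSS mice at 30.6, 21.2 and 127. In these 5 models no mouse overlapped with a control. The DNBS mice were at 4.24, 5.11 and 68.4 CPM, so that mouse 16 stood alone and the other mice lay within the range of the 9 controls. The log2 fold change was 4.57 ± 0.80 in the IL-10 group (adjusted p = 7.0e-05), 3.82 ± 0.80 in DSS (0.000828; 2.62 without mouse 8), 3.80 ± 0.80 in TCT (0.000770; 4.06 against WT), 3.76 ± 0.79 in anti-CD40 (0.00192) and 3.71 ± 0.78 in TRUC (0.000536). In DNBS it was 2.61 ± 0.78 (adjusted p = 0.0476), and without mouse 16 it was 0.15 (0.940), the call also being lost when any 1 WT mouse was left out. Il18bp was 1 of the 2 members for which the test of equal contrasts did not pass (adjusted p = 0.218), the other being Il1f6 (0.269). Anti-CD40, the model with the weakest Il1b rise, thus had an Il18bp level within the range of the others, and TCT and anti-CD40 differed by 0.03 (95% interval -1.37 to 1.44). Of the 50-base windows in its exons, 0.968% are shared with Numa1, a gene on the opposite strand with 62526 counts, and reads there cannot be told apart without strand.

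The 3 genes closest to Il18bp over the 29 mice, after each group's mean was subtracted, were Psmb8 (r = 0.973), Psme2b (0.970) and Psmb9 (0.966). Psmb8 and Psmb9 encode catalytic subunits of the immunoproteasome. The values were 0.967, 0.962 and 0.962 without the DSS mice, with DNBS mouse 16, apart in Il18bp, still included. These correlations are descriptions over mice that share their groups and library depth. For Il1b the closest genes were Ms4a6d (0.905), Il1a (0.901) and Plaur (0.885), and without the DSS mice these were 0.774, 0.749 and 0.744. For Il1a they were Ifitm1 (0.944), Stx11 (0.931) and Ptgs2 (0.926), where Ptgs2 encodes the inducible cyclooxygenase and fell to 0.620 without DSS. For Il1r2 they were Atp1b3 (0.869), Fcer1g (0.867) and Siglece (0.846), for Il1rn Bcl2l11 (0.888), Cd200 (0.887) and 1600014C10Rik (0.866), and for Il18 Eno3 (0.918), Zfp239 (0.918) and Gnpda1 (0.917). For Il33 they were Fgl2 (0.836), Atp11a (0.824) and Muc4 (0.823), for Il1rl1 Cemip (0.859), Carmil1 (0.804) and Omp (0.774), for Il1f6 Atp2c1 (0.828), Naaa (0.807) and 2010005H15Rik (0.802), and for Il1f9 Plek (0.915), Pilra (0.914) and Hcar2 (0.871). The value of Il1rn with Cd200 fell to 0.456 without DSS, whereas Il18 with Gnpda1 stood at 0.927, with IL-10 mouse 4, low in Il18, still included.

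Il33 was the member whose direction differed between models. WT mice were at 12.1, 15.5 and 11.3 CPM and the DSS mice at 19.3, 35.9 and 106, all above them. The anti-CD40 mice were at 2.07, 3.34 and 2.08 CPM and the TCT mice at 3.40, 4.44 and 8.24, all below the labelled Rag1-/- mice (10.9, 21.0 and 17.8). In DSS the log2 fold change was 2.05 ± 0.50 (adjusted p = 0.00283), and without mouse 8 it was 1.09 and did not pass (0.0796). In anti-CD40 Il33 fell by 2.73 on the log2 scale (SE 0.56, adjusted p = 0.00146), and against the Rag2-/- mice by 2.76 (0.00129). In TCT it fell by 1.63 (SE 0.52, adjusted p = 0.0196), a call lost against the WT mice, where the value was -1.28 (0.0633) with no overlap between the mice, and when TCT mouse 1, TCT mouse 3 or control mouse 3 was left out. The contrasts were not equal over the 6 models (adjusted p = 3.1e-05), and DSS exceeded the IL-10 group by 2.82 ± 0.47 (3.5e-05) and DNBS by 1.81 ± 0.49 (0.0108). The contrast with DNBS was 0.85 without DSS mouse 8 (adjusted p = 0.227), and was also lost without DNBS mouse 14 and with edgeR on these groups alone.

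The IL-10 mice were at 4.55, 4.78, 4.54 and 16.7 CPM of Il33, so 3 mice lay below all WT mice and mouse 4 above them. With all 4 the log2 fold change was -0.78 ± 0.47 (adjusted p = 0.167), and without mouse 4 it was -1.50 and passed (0.00854). The TRUC mice, at 12.5, 8.89, 9.89 and 5.94 CPM, all lay below the Rag2-/- mice (21.0, 15.4 and 14.4), with a value of -0.86 ± 0.46 that did not pass (0.130) but did pass when edgeR was run on these groups alone and with DESeq2. DNBS, at 17.1, 11.9 and 16.9 CPM, gave 0.24 ± 0.49 (0.805). The endothelial markers (Pecam1, Cdh5, Kdr, Tek) summed to 215 to 287 CPM in DSS against 135 to 147 in WT mice, with 4 of 4 called higher, and to 69.5 to 92.3 in anti-CD40 against 105 to 131, with 1 of 4 called lower. They summed to 51.5 to 114 CPM in the IL-10 group, with 2 of 4 called lower, and to 148 to 288 in DNBS, with 1 of 4 higher. In TCT, where Il33 was low, they summed to 111 to 134 CPM and 0 of 4 were called, and in TRUC to 77.6 to 98.8 against 87.8 to 113, with 1 of 4 lower. IL-10 mouse 4, the highest of its group in Il33, had the lowest endothelial sum, 51.5 CPM, and the lowest fibroblast sum. The fibroblast markers (Pdgfra, Col1a1, Col3a1, Dcn, Pdpn) summed to 1809 to 2765 CPM in DSS against 1296 to 1517, with 3 of 5 called higher, to 670 to 1160 in anti-CD40 against 925 to 1313, with 1 of 5 lower, to 1291 to 1555 in TCT, with 1 of 5 higher, and to 1409 to 3741 in DNBS, with 3 of 5 higher. They summed to 1120 to 1465 CPM in TRUC against 949 to 1163, with 1 of 5 higher, and to 768 to 1203 in the IL-10 group, with 2 of 5 lower. No marker of either list was at 0, and their part in the result was not tested. In whole colon, fewer cells of a type and less RNA per cell cannot be told apart.

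**Figure D4:**
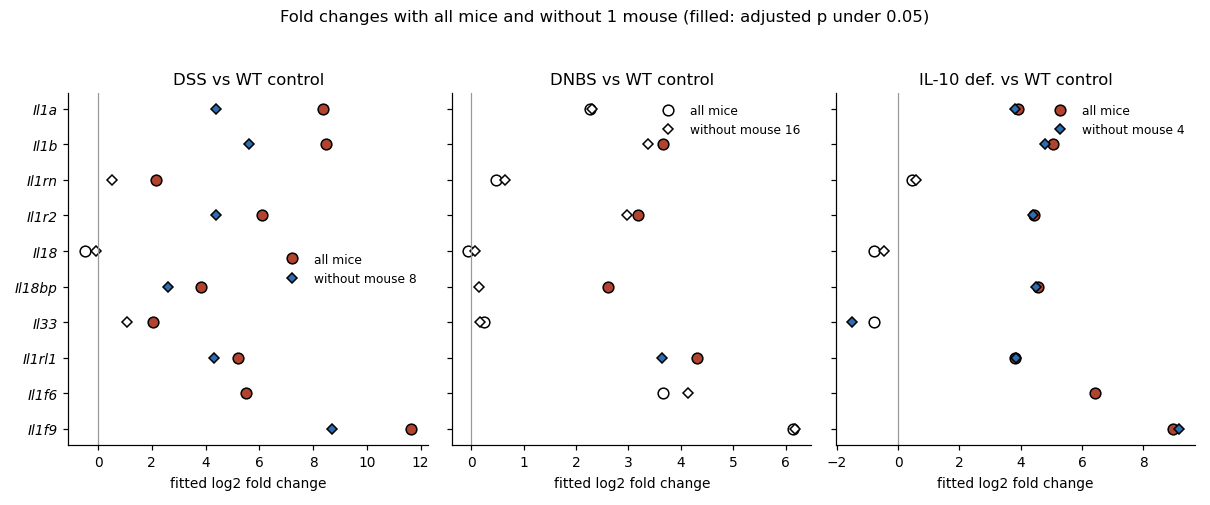
Fitted log2 fold changes with all mice (circles) and without 1 mouse (diamonds), mouse 8 in DSS, mouse 16 in DNBS and mouse 4 in the IL-10 group, filled for an adjusted p under 0.05, on axes that differ in range. In DSS every rise is smaller without mouse 8 and Il1rn and Il33 are no longer filled, in DNBS Il18bp moves from 2.61 to 0.15, and Il33 in the IL-10 group becomes filled; a missing diamond is a gene under the filter.

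Il1rl1, the receptor for interleukin-33, rose in 5 models, in 1 of which Il33 was called higher too. Controls were at 0.990 to 1.66 CPM in WT mice, 1.03 to 1.30 in the labelled Rag1-/- mice and 1.33 to 3.70 in the Rag2-/- mice. The TRUC mice were at 45.5, 44.0, 34.0 and 30.0 CPM, the DSS mice at 18.1, 33.9 and 93.0, and the DNBS mice at 19.0, 13.6 and 46.3. The IL-10 mice were at 22.6, 20.9, 13.1 and 17.2 CPM, and the TCT mice, the most spread, at 9.08, 77.0 and 30.2. None overlapped with a control. The anti-CD40 mice were at 1.31, 3.86 and 3.23 CPM, above their own controls but spread across the range of the Rag2-/- mice. The log2 fold change was 5.20 ± 0.71 in DSS (adjusted p = 1.4e-05; 4.31 without mouse 8), 5.10 ± 0.73 in TCT (9.8e-06; 4.88 against WT), 4.32 ± 0.70 in DNBS (0.00134), 4.06 ± 0.65 in TRUC (4.0e-05) and 3.81 ± 0.68 in the IL-10 group (8.3e-05). It was the only member called in DNBS under all alternatives run. In anti-CD40 the value was 1.33 ± 0.78 (0.230), against the Rag2-/- mice 0.31 (0.792), and TCT exceeded anti-CD40 by 3.77 ± 0.65 (adjusted p = 0.000176).

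The marker sums for cells known to carry ST2 did not run alike. Mast cell markers (Cpa3, Kit, Mcpt1, Mcpt2, Cma1) summed to 47.7 to 70.6 CPM over the 9 control mice and to 22.9 to 58.0 over the models, with none at 0 in any group. Of these 5 markers, 2 were called higher and 1 lower in TRUC and in TCT, 1 and 1 in the IL-10 group, 2 and 0 in DSS and in anti-CD40, and 1 and 0 in DNBS. Markers of type 2 and regulatory lymphocytes (Gata3, Foxp3, Areg, Il5, Il13) summed to 7.39 to 15.6 CPM in WT mice, 18.8 to 27.8 in the labelled Rag1-/- mice and 8.91 to 29.5 in the Rag2-/- mice. They summed to 35.7 to 118 CPM in DSS, 53.2 to 97.5 in the IL-10 group, 43.1 to 62.5 in TRUC, 15.4 to 58.8 in DNBS, 25.7 to 37.6 in TCT and 24.0 to 54.0 in anti-CD40. Il5 was at 0 in DSS, DNBS and TCT, Il13 in the IL-10 group and anti-CD40, and both in WT mice, while Il13 was at 0 in the labelled Rag1-/- mice and Il5 in the Rag2-/- mice. Of the 3 that passed the filter, 3 were called higher in the IL-10 group, 2 in DSS and TRUC, 1 in TCT and 0 in DNBS and anti-CD40. Their part in the rise of Il1rl1 was not tested.

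Of the IL-36 ligands, Il1f9 went from undetected to measurable. It had 0 counts in all WT and Rag2-/- mice and 1 count over the 3 labelled Rag1-/- mice. The TRUC mice were at 8.40, 18.1, 13.2 and 7.73 CPM and the IL-10 mice at 5.06, 4.99, 7.12 and 3.13. The DSS mice were at 1.82, 6.63 and 89.6 CPM and the TCT mice at 1.83, 2.82 and 4.35. The DNBS mice, at 0.656, 0.775 and 0.682, and the anti-CD40 mice, at 0.657, 1.88 and 0.215, were the lowest. Set against a floor of 3 counts per library, the mean was at least 49.3-fold higher in TRUC (adjusted p = 0.000213), at least 145-fold in DSS (6.8e-05, but 0.0537 with edgeR on these groups alone), of which mouse 8 made the larger part, at least 22.6-fold in the IL-10 group (0.000741) and at least 3.14-fold in DNBS, which did not pass (0.156). With 1 control count the ratio of pooled counts was 112 in TCT (counting interval 19.6 to 4454, adjusted p = 0.00893, and 0.00627 against the WT mice) and 33.1 in anti-CD40 (5.54 to 1349, adjusted p = 0.114). Of the 50-base windows in its exons, 8.68% occur in other genes.

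Il1f6 stayed near the limit of detection. It had 0 counts in all 9 control mice and in the anti-CD40 mice. It had 10, 7, 5 and 5 counts in the TRUC mice, 3, 6, 11 and 16 in the IL-10 mice and 0, 2 and 16 in the DSS mice. It was called in TRUC (at least 2.31-fold, adjusted p = 0.0182), the IL-10 group (at least 3.88-fold, 0.00534) and DSS (at least 2.10-fold, 0.0383), where mice 5 and 6 lay at or under the floor and without mouse 8 the gene was under the filter. The fold in DSS is thus that of a mean carried by mouse 8. The DSS call was also lost when any 1 WT mouse was left out and with edgeR on these groups alone (adjusted p = 0.179). The 88 counts of Il1f6 over the 29 mice lay just over the filter, which it passed only through the groups where it was high. Without any 1 TRUC mouse, or without IL-10 mouse 2, 3 or 4, it was under the filter as well and had no test. In DNBS 1 mouse of 3, mouse 11, had 5 counts, and that mouse had squamous markers (Krt5, Krt14, Krt1, Krt10, Krt6a, Trp63, Lor) summing to 290 CPM where the others were at 21.1 and 18.8. In DNBS 4 of these 7 markers were called higher, and Krt6a was at 0 in WT mice. Their part in the Il1f6 counts was not tested. TCT had 2 counts over 3 mice.

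Neutrophil markers (S100a8, S100a9, Csf3r, Cxcr2, Mmp9, Trem1, Clec4d) summed to 2.19 to 4.15 CPM in the 9 control mice, in which Cxcr2 was at 0. They summed to 765 to 1283 CPM in TRUC, 192 to 1879 in DSS, 149 to 361 in the IL-10 group, 161 to 288 in TCT, 28.1 to 154 in DNBS and 35.2 to 197 in anti-CD40. All 7 were called higher in TRUC, DSS, the IL-10 group and TCT, 6 in DNBS and 5 in anti-CD40. DSS mouse 8, highest in Il1b, had the sum of 1879 CPM, while mice 5 and 6 had 192 and 356. Anti-CD40 mouse 7, the highest of its group in Il1b, Il1r2 and Il1f9, had 197 CPM and the others 35.2 and 38.4. In other mice the members did not run alike. TCT mouse 5, with the highest sum of its group (288 CPM), had the highest Il1b and Il1f9 but the lowest Il1a and Il1r2. IL-10 mouse 3, with the lowest (149), had the lowest Il1a and Il1b but the highest Il1r2 and Il1f9. DNBS mouse 14, with the highest (154), had the highest Il1a and Il1f9 but less Il1b and Il1r2 than mouse 16 (67.1). TRUC had a higher neutrophil sum than TCT in every mouse, yet 1 of its 4 mice had less Il1b than any TCT mouse. That mouse, mouse 5, had the lowest neutrophil sum of the TRUC mice (765 CPM). Monocyte and macrophage markers (Csf1r, Adgre1, Cd68, Cd14, Ly6c2, Fcgr1) summed to 120 to 186 CPM in controls and to 552 to 596 in anti-CD40, 639 to 834 in TRUC, 405 to 1539 in DSS, 314 to 546 in the IL-10 group, 429 to 530 in TCT and 232 to 298 in DNBS. All 6 were called higher in TRUC and DSS, 5 in TCT, 3 in the IL-10 group, 2 in anti-CD40 and 1 in DNBS, and none was at 0 in any group. The part of these cells in the results was not tested.

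Between the models, 8 of 10 members had unequal contrasts, where 60.5% of all genes did. The models that share controls were compared directly. DSS and DNBS differed in 6 members (22.6% of all genes), all higher in DSS: Il1a, Il1b, Il1rn, Il1r2, Il33 and Il1f9, and without DSS mouse 8 in 3. With edgeR on these groups alone they differed in 0. DSS and the IL-10 group differed in 7 (49.8%), all higher in DSS, and without mouse 8 in 2, Il33 still higher (1.86, adjusted p = 0.000970) and Il18bp lower (-1.95, 0.0281). With edgeR on these groups alone they differed in 3. DNBS and the IL-10 group differed in 2 (33.9%), both lower in DNBS: Il18bp by -1.96 ± 0.68 (adjusted p = 0.0293) and Il1f9 by -2.84 ± 0.98 (0.0315). The Il18bp value was -4.41 without DNBS mouse 16, and the call was lost without DNBS mouse 11 or 14 or IL-10 mouse 2 or 4. The Il1f9 call was lost without IL-10 mouse 3 or any 1 of the DNBS mice. TCT and anti-CD40 differed in 3 (18.4%), with Il1r2 and Il1rl1 higher and Il18 lower in TCT. With edgeR on the compared groups alone, this contrast and that of DNBS with the IL-10 group called more members. With the WT mice as control 5 members were called in TCT (30.8% of all genes), with the Rag2-/- mice 8 (32%), and in anti-CD40 with the Rag2-/- mice 3 (24.2%).

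The wider pathway held 27 further genes, of which 22 passed the filter, and Il1f5, Il1f8, Il1f10, Elane and Ctsg did not. Of the 22, 12 were called higher and 1 lower in TRUC, 9 and 4 in DSS and 0 and 0 in DNBS. In the IL-10 group 12 and 2 were called, in TCT 10 and 0 and in anti-CD40 8 and 2. These are to be read against the shares of all genes, as a description, since this list too was chosen with earlier results known. Called higher and lower were 22.4% and 23.4% in TRUC, 17.7% and 16.3% in DSS and 3.95% and 2.21% in DNBS. The shares were 27.2% and 26.1% in the IL-10 group, 16.1% and 14% in TCT and 10.9% and 10.7% in anti-CD40. No gene was called in all 6 comparisons. Among receptors the IL-18 receptor chains were named by the size of their median, with log2 fold changes of Il18rap of 3.01 in TRUC, 3.65 in DSS, 2.92 in the IL-10 group and 3.72 in TCT, all called, and of 1.56 in DNBS and 0.87 in anti-CD40, not called. Il18r1 was called in the same 4 models with 1.33, 1.69, 2.79 and 4.19. In TCT, where it was highest, the T cell markers (Cd3e, Cd3d, Cd4, Trac) summed to 65.8 to 125 CPM against 3.24 to 4.56 in the control, in which Cd3d was at 0, and their part was not tested.

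Among adaptors, Myd88, which relays signals from the IL-1, IL-18, IL-33 and IL-36 receptors, was called higher in all models but DNBS, with values from 0.87 in the IL-10 group to 1.39 in DSS and 0.59 in DNBS. Irak3, an inhibitor in the same complex, was called in DSS (2.18) and TCT (1.04). Among processing genes, the inflammasome sensor Nlrp3 was called in DSS (5.48), TCT (3.68) and TRUC (3.51), and was at 1.88 in the IL-10 group (adjusted p = 0.0589), 2.23 in anti-CD40 (0.113) and 1.29 in DNBS (0.373). Prtn3, a neutrophil protease that can cut IL-1 family precursors, was called higher in DSS (adjusted p = 0.00129) and the IL-10 group (0.0176), where no WT mouse had more than 2 counts, so no fold is given.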

How the data were processed

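RNA of colon segments from 29 mice in 9 groups was analysed as the table of raw read counts per gene that the authors deposited, with no normalization. The submitters' processing notes name Trimmomatic, HISAT2, HTSeq and GRCm38. Versions and the strand setting are not given in the sources used here. The 92 spike-in rows held 0 counts and were left out. Groups and mouse numbers came from the labels, which give no litter, cage or batch.

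The 18616 of 54532 genes whose counts averaged 3 or more over all mice were fitted with edgeR 4.0.16 (R 4.3.3), TMM scaling and the quasi-likelihood F test, all 9 groups in 1 fit, two-sided, p-values being adjusted by Benjamini-Hochberg across these genes and called under 0.05. Each model was contrasted with its own control. Models sharing controls were contrasted directly, and a test of equal contrasts covered all 6. Levels are counts scaled to library size by TMM (CPM). Against controls at 0, folds are lower bounds at 3 counts per library. With 1 to 3 control counts in all they are ratios of scaled counts pooled over each group. These carry an exact 95% counting interval, which covers counting error only. Depth was 10725564 to 14977094 counts. Pearson's r for closest genes used log2 CPM with a prior count of 2 after each group mean was subtracted. Per-kilobase levels used merged exons, and promoters came from the RefSeq table (GRCm38.p6).

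Members, markers and the wider list were chosen with earlier results of these data known. All members were named, with the 3 closest genes to each. From the wider list the genes named were those called one way in all 6 comparisons and, in each of its groups, the 2 with the largest median log2 fold change by size. The fit was tested on simulated data. Alternatives were RLE and upper-quartile scaling, other filters, a threshold of 0.01, edgeR or DESeq2 1.42.0 on the compared groups alone, other controls, a replicate block and leaving out each mouse.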

Additional observations from a re-analysis of the deposited data

Results flagged for a closer look

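Il33 in the IL-10 group had 1 mouse apart from the others, mouse 4 at 16.7 CPM, where the gap to the next mouse took up 0.981 of the range of the 4 mice, above Dixon's critical value. It was the only such value among the 20 sets of 4 mice tested, of which chance flags about 1 in 20.

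The 6 model contrasts were unequal in the edgeR quasi-likelihood fit for 8 members. The adjusted p values were 3.1e-05 for Il33, 5.7e-05 for Il1a, 9.1e-05 for Il1b, 0.000188 for Il1r2, 0.000582 for Il1rl1, 0.00138 for Il1f9, 0.00459 for Il1rn and 0.0466 for Il18. Of all genes 60.5% passed the same test. For Il33 the called direction itself differed, higher in DSS and lower in TCT and anti-CD40. The DSS call was lost without mouse 8, and the TCT call against the WT mice and without certain single mice.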

How the results depend on the processing

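Of 543 alternative values for the 38 calls against a model's own control, 494 kept direction and call and 49 lost the call, and 26 calls were never lost among these values. Fits in which a gene fell under the filter gave no value and are not among the 543. Il1f6 thus had no value without any 1 TRUC mouse, without IL-10 mouse 2, 3 or 4, or without DSS mouse 8. With 1 mouse left out, members called ranged over 6 to 7 in TRUC, 6 to 9 in DSS, 1 to 4 in DNBS, 6 to 7 in the IL-10 group, 6 to 7 in TCT, 2 to 3 in anti-CD40, 3 to 6 for DSS against DNBS, 2 to 7 for DSS against the IL-10 group, 0 to 3 for DNBS against the IL-10 group, 2 to 4 for TCT against anti-CD40 and 7 to 9 for unequal contrasts. At an adjusted p under 0.01, 1 was called in DNBS and 0 in DNBS against the IL-10 group. DESeq2 called 5 in DSS, losing Il1rn and giving no adjusted p for Il1a, Il1b and Il1f6, which counts as no loss. With edgeR on these groups alone Il1rn, Il1f6 and Il1f9 were lost in DSS. Anti-CD40 had 6 with edgeR on its groups alone and 6 with DESeq2, and TCT 5 against the WT mice. In the same order of tools, DSS against DNBS had 0 and 3, DSS against the IL-10 group 3 and 4, DNBS against the IL-10 group 4 and 5, and TCT against anti-CD40 5 and 6, with no DESeq2 adjusted p for Il1a and Il1b in both DSS contrasts. The cause was not tested. Signs turned only for log2 fold changes as follows. The Il18bp log2 fold change in TCT against anti_CD40 was -0.00211 without the filter and -0.43 to 0.35 with 1 mouse left out. Against the Rag2-/- mice, anti-CD40 gave -0.37 for Il1rn and 0.059 for Il18. With 1 mouse left out, Il18 ran from -0.20 to 0.14 in anti-CD40, -0.17 to 0.077 in DNBS and -0.093 to 0.69 in DSS against the IL-10 group, where Il1r2 ran from -0.057 to 2.13 and Il1f9 from -0.27 to 3.25, both lowest without DSS mouse 8. Il1rn ran from -0.16 to 0.20 and Il1rl1 from -0.16 to 0.83 in DNBS against the IL-10 group, and Il1rl1 from -0.011 to 1.55 in DSS against DNBS. Upper-quartile scaling moved the median of all genes to -0.14 in TRUC and -0.18 in the IL-10 group. A replicate block left 7 calls in TRUC and 7 in the IL-10 group, as did the same mice without it. Same-numbered mice deviated with correlations of -0.05 to 0.06. These few pairs cannot show whether such mice shared a litter, cage or batch. Depth limits Il1f6 and control levels of Il1f9 and Il1a.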
